A study of Bos grunniens with 6 samples.

Results

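The cluster of miR-424, miR-503, miR-450a, miR-450b and miR-542 is a group of miRNA genes that lie close together on the X chromosome of mammals. Its members were taken from the deposited table by name, as every entry called by 1 of these names on either arm. This gave 7 of the 2853 entries, which are bta-miR-424-5p, bta-miR-424-3p, bta-miR-503-5p, bta-miR-503-3p, bta-miR-450a, bta-miR-450b and bta-miR-542-5p, where bta marks a cattle name. The levels came from small RNA sequencing of cultured yak (Bos grunniens) skin cells of 2 types. Dermal papilla cells (papilla cells from here on) are mesenchymal cells of the follicle base that signal to the epithelium. Hair matrix cells (matrix cells) are the dividing epithelial cells next to them, from which the shaft is formed. There were 3 libraries of each type, all wild type, isolated and grown in DMEM/F12 with serum, IGF1, EGF and antibiotics. The labels call them biological replicates and name no animals or cultures, so a p-value here measures the spread between libraries, which may be technical.

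miRNAs of the cluster are known to be transcribed together, and each hairpin is cut into a 5p and a 3p arm, of which either can be loaded into a silencing complex. miR-424 and miR-503 belong to the seed family of miR-15 and miR-16, which represses cyclins and other genes of cell cycle entry, and both are known to accumulate when myoblasts and monocytes stop dividing and differentiate. A miRNA finds its targets mainly through its seed, the bases near its 5′ end.

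The sequences are shown because they divide the members into groups that share or differ in the seed. They are the deposited sequences, 5′ to 3′ and written with T for U, and capitals mark bases 2 to 8, the seed.
miR-424-5p: cAGCAGCAattcatgttttga
miR-503-5p: tAGCAGCGggaacagtactg
miR-424-3p: cAAAACGTgaggcgctgctat
miR-503-3p: gGAGTATTgtttctgctgcccgg
miR-450a: tTTTGCGAtgtgttcctaatat
miR-450b: tTTTGCAAtatgttcctgaata
miR-542-5p: tCGGGGATcatcatgtcacgag

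miR-424-5p and miR-503-5p had the same bases 2 to 7, which 9 of the 2853 entries held, themselves included. Within the seed they differed only at the last base, by the substitution A8G from miR-424-5p to miR-503-5p, with positions counted from 1 at the 5′ end. miR-450a and miR-450b had 16 of 22 positions in common and differed in the seed by G7A from miR-450a to miR-450b. No other entry had the full seed of miR-450a, of miR-450b, of miR-424-3p, of miR-503-5p or of miR-542-5p. No entry came within 1 mismatch of a member over at least 18 bases on the same strand.

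All 7 entries had a higher mean level in papilla cells, as did 1412 of all 2853 entries. Levels are given in RPM, which scales the reads of each entry to a fixed library total, and 6 of the 7 entries reached the minimum of 1 RPM in at least 3 libraries and were tested. Of these 6, limma called 5 as higher in papilla cells and 0 as higher in matrix cells. A call required both an adjusted p below 0.05 and a change of 2-fold or more on the log2(RPM + 1) scale. Among all 503 tested entries, 25.2% were called towards papilla cells and 19.9% towards matrix cells. The sixth member, miR-503-5p, had an adjusted p below the threshold but did not reach 2-fold on that scale. The median log2 change was 1.74 over the 6 members and -0.01 over all 503 entries. miR-503-3p passed the minimum through the papilla libraries and 1 matrix library. Its log2 change of 1.79 is set by its own 6 values, so removing the filter on low values cannot alter it. Only its adjusted p can change, and this was 1.89e-07 in limma with no filter. The other 5 tested members reached 1 RPM in all 6 libraries.

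**Figure D1:**
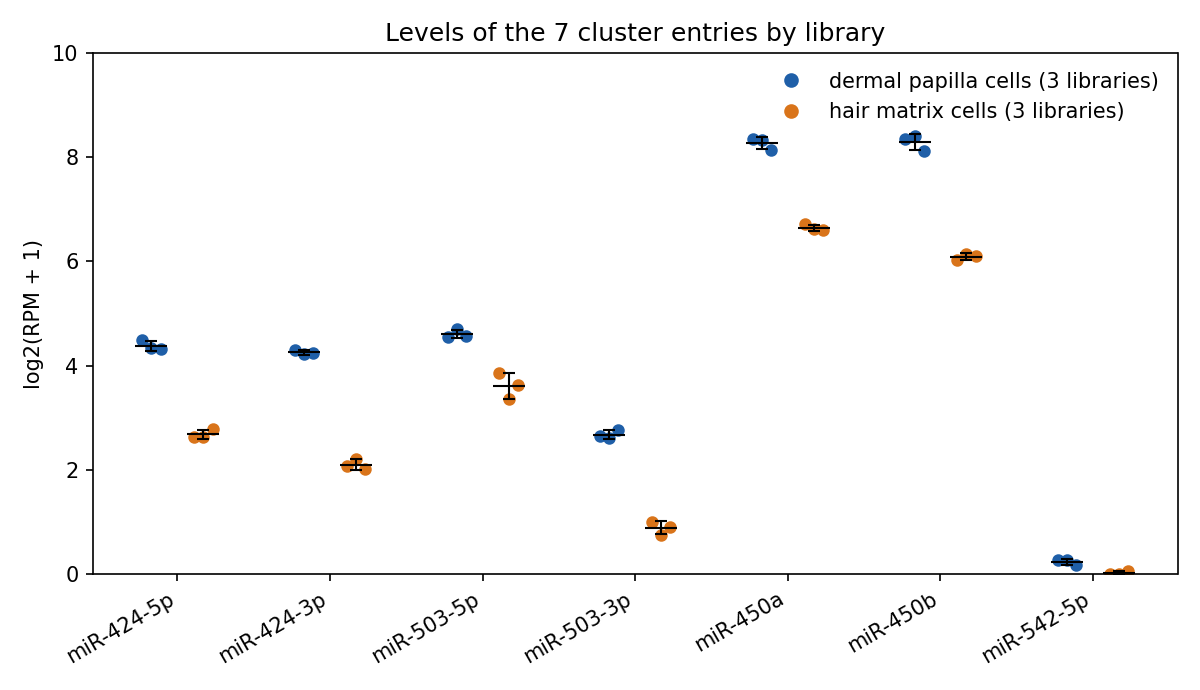
Level of each cluster entry in each library, as log2(RPM + 1). Points are libraries (blue, dermal papilla cells; orange, hair matrix cells, 3 of each), and bars give the mean and SD. For each of the 7 entries the dermal papilla libraries lie above all hair matrix libraries, with miR-450a and miR-450b at the top and miR-542-5p near 0.

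miR-450a and miR-450b were by far the most abundant members. bta-miR-450a was at 325, 320 and 281 RPM in papilla replicates 1, 2 and 3, and at 104, 97.5 and 96.6 RPM in matrix replicates 1, 2 and 3. bta-miR-450b was at 325, 338 and 277 RPM in the papilla libraries and at 64.1, 69.5 and 68.2 RPM in the matrix libraries. Papilla replicate 3 was the lowest of its group for both miRNAs, and the groups did not overlap for either. For miR-450a the mean was 309 ± 23.7 RPM (SD, n = 3) against 99.4 ± 4.07 RPM, a 3.10-fold difference with a log2 change of 1.62 ± 0.071 (SE; limma adjusted p = 4.40e-07). miR-450b had 313 ± 32.1 RPM against 67.3 ± 2.85 RPM, a 4.66-fold difference with a log2 change of 2.20 ± 0.085 (SE; limma adjusted p = 2.23e-07). By mean level they ranked 88th and 84th of the 2853 entries in papilla cells and 113th and 132nd in matrix cells. In bulk libraries such as these, fewer cells that make a miRNA and less of it per cell cannot be told apart.

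The arms of miR-424 were much less abundant. bta-miR-424-5p, the arm with the miR-16 seed, was at 21.5, 19.3 and 19.0 RPM in the papilla libraries and at 5.22, 5.19 and 5.87 RPM in the matrix libraries. Its groups lay far apart compared with the spread within them, and the 3.67-fold difference in mean RPM corresponded to a log2 change of 1.70 ± 0.086 (SE; limma adjusted p = 9.92e-07). bta-miR-424-3p, the other arm of the same hairpin, was at 18.8, 17.7 and 17.9 RPM in the papilla libraries and at 3.20, 3.63 and 3.04 RPM in the matrix libraries. Its level was 5.51 times as high in papilla cells (log2 change 2.16 ± 0.083 SE, limma adjusted p = 2.15e-07). The papilla libraries held 461 to 515 reads of the 5p arm and 423 to 450 of the 3p arm, and the matrix libraries held 127 to 141 and 73 to 89.

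miR-503-5p had the smallest log2 change of the 6 tested members. bta-miR-503-5p was at 22.4, 24.9 and 22.7 RPM in the papilla libraries and at 13.5, 9.31 and 11.3 RPM in the matrix libraries. The groups did not overlap, but matrix replicate 1 stood closer to the papilla libraries than the other two did. The means were 2.05-fold apart, and on the log2(RPM + 1) scale the change was 0.99 ± 0.130 (SE; limma adjusted p = 0.000249), with a 95% interval of 0.68 to 1.30. The call depended on settings that move this value across 2-fold. edgeR on whole reads, which called 28.4% of the 503 entries towards papilla cells, gave 1.01 and a call. DESeq2, which called 30% of them, gave 1.10 and a call. limma without matrix replicate 1 gave 1.11 and a call, without papilla replicate 1 it gave 1.02 and without papilla replicate 3 it gave 1.01, both also calls. Quantile normalization reduced the change to 0.21 (limma adjusted p = 0.255). It also reduced the log2 changes of miR-424-5p to 1.12 and of miR-450a to 1.05, which were still called but lay close to 2-fold.

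The 3p arm of miR-503 was low in both cell types. bta-miR-503-3p was at 5.27, 5.14 and 5.82 RPM in the papilla libraries and at 1.01, 0.694 and 0.875 RPM in the matrix libraries, where it rested on 17 to 25 reads per library. The groups did not overlap, and the mean RPM were 6.29-fold apart. The log2 change of 1.79 ± 0.096 (SE; limma adjusted p = 1.46e-06) understates this ratio, because the added 1 RPM is about as large as the level in matrix cells. From whole reads edgeR gave a log2 change of 2.62. With a pseudocount of 10 RPM neither miR-503-3p (0.50) nor miR-424-5p (0.96) was called.

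miR-542-5p, the 1 arm of miR-542 among the analysed entries, was close to the limit of detection. bta-miR-542-5p had 5, 5 and 3 reads in papilla replicates 1, 2 and 3 and 0, 0 and 1 reads in matrix replicates 1, 2 and 3. Its highest level was 0.209 RPM, and 3 reads correspond to 0.121 to 0.125 RPM in a library. The ratio of its reads per library total was 13.2, with an exact 95% interval of 1.98 to 561 that covers counting error only. It was below the filter and was not tested with the other members. Without the filter its log2 change of 0.22 had a limma adjusted p of 0.0504 and was not called.

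The order of the members by level differed in part between the cell types. In papilla cells miR-450b and miR-450a came first and differed by less than the spread between libraries. They were followed by miR-503-5p, miR-424-5p, miR-424-3p and miR-503-3p, and for each neighbouring pair among these the ranges of the 3 libraries did not overlap. In matrix cells miR-450a stood above miR-450b without overlap, and the order of the other members was the same. The cell types did not overlap for any of the 6 tested members, and among all 503 tested entries 41.7% had no overlap with papilla cells higher. Summed, the 7 entries made up 0.0985%, 0.0988% and 0.0870% of listed reads in the papilla libraries and 0.0260%, 0.0257% and 0.0259% in the matrix libraries. miR-450a and miR-450b together held 90.2% ± 0.661 of that sum in papilla cells and 88.8% ± 0.958 in matrix cells (SD, n = 3), so the sum mainly shows these miRNAs.

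**Figure D2:**
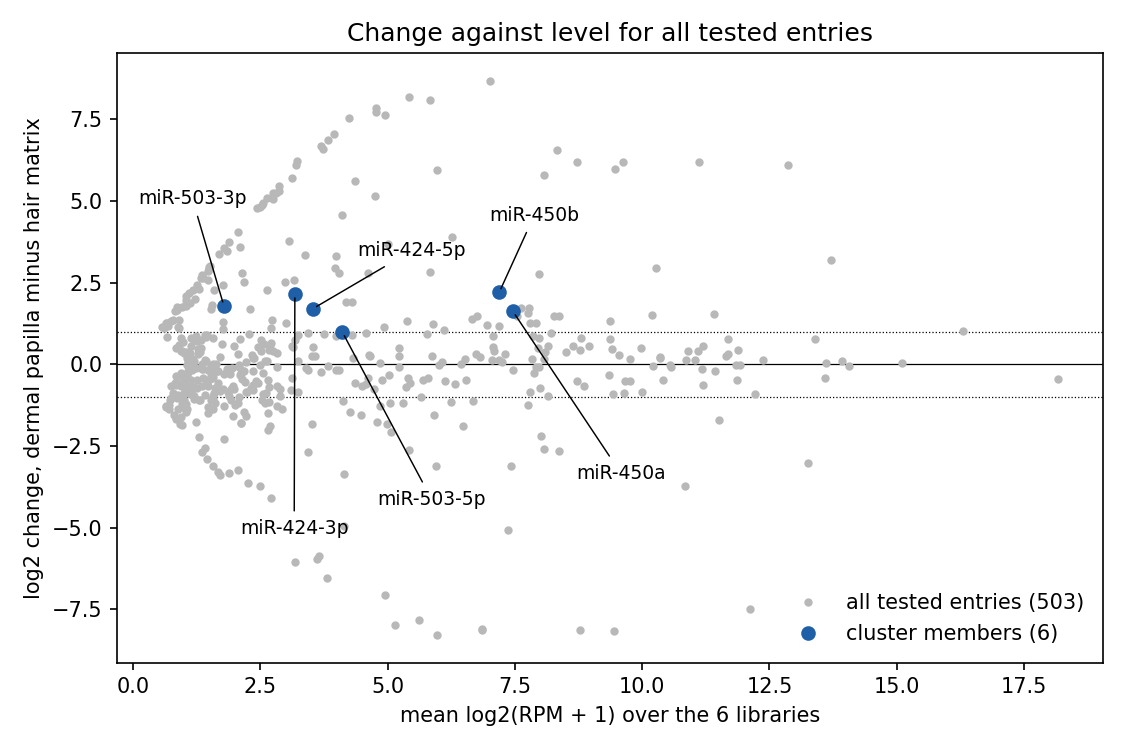
Log2 change (dermal papilla minus hair matrix) against mean level for the 503 tested entries, with the 6 tested cluster members in blue and named. Dotted lines mark a 2-fold change on the log2(RPM + 1) scale, which 5 members exceed, and miR-503-5p lies just under the upper line at 0.99.

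Set against other miRNAs, the changes of the members were moderate. Between 71 (for miR-450b) and 127 (for miR-503-5p) of the 503 tested entries had a larger change towards papilla cells than a given member. The mesenchymal markers miR-143, miR-145, miR-199a, miR-199b and miR-214 summed to 88413 to 91201 RPM in papilla and 1204 to 1421 RPM in matrix libraries, and all 6 of their entries were called towards papilla cells. The epithelial markers miR-200a, miR-200b, miR-200c, miR-141, miR-429 and miR-205 summed to 82.9 to 107.6 RPM and 22064 to 22261 RPM, and all 6 were called towards matrix cells, so the labels and these markers went the same way. The 4 muscle entries summed to 57.9 to 72.7 RPM in papilla and 24.6 to 26.3 RPM in matrix libraries. miR-1, the 1 muscle entry past the filter, averaged 66.0 and 25.4 RPM and was called (limma adjusted p = 9.24e-06), whereas miR-133a, miR-133b and miR-206 stayed at or below 1.21 RPM in every library, with miR-133b at 0 in all matrix libraries. The 4 blood entries, led by miR-451, summed to 17.2 to 19.5 and 7.53 to 10.9 RPM, and the 2 arms of the endothelial miR-126 to 3.68 to 4.70 and 2.57 to 4.01 RPM. The part of these cell types in the levels of the cluster was not tested.

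Plain ratios of members within a library do not depend on how libraries are scaled, and they show whether members of the cluster differed in their change. The log2 ratios that were tested had 1 RPM added to each value, so they are not free of the scaling. The 5p arm of miR-424 was 1.14, 1.09 and 1.06 times the 3p arm in papilla libraries and 1.63, 1.43 and 1.93 times in matrix libraries. For miR-503 the 5p arm was 4.25, 4.85 and 3.91 times the 3p arm in papilla libraries and 13.4, 13.4 and 13.0 times in matrix libraries. In both hairpins the 3p arm made up more of the reads in papilla cells, with no overlap between the cell types. How often the arm ratios of other hairpins differ in this way was not tested. As log2 of values with 1 RPM added, the difference in the 5p to 3p ratio (papilla minus matrix) was -0.46 for miR-424 and -0.80 for miR-503. Without the added RPM the difference was -0.59 for miR-424 and -1.62 for miR-503. For miR-503 the added value is large beside its 3p arm in matrix cells.

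miR-503-5p was 1.04, 1.30 and 1.20 times miR-424-5p in papilla libraries and 2.59, 1.80 and 1.93 times in matrix libraries. On the log2 scale the difference was -0.72 with 1 RPM added and -0.83 without it. Matrix replicate 1 held the highest of these ratios, and the groups did not overlap. miR-450b was 15.1, 17.5 and 14.6 times miR-424-5p in papilla libraries and 12.3, 13.4 and 11.6 times in matrix libraries. This log2 difference was 0.50 with 1 RPM added and 0.34 without it. miR-450a was 14.8 to 16.6 times and 16.5 to 19.9 times miR-424-5p in papilla and matrix libraries, and these ranges overlapped (difference -0.08, exact permutation p = 0.4). Without the added RPM this difference was -0.24 (exact permutation p = 0.2). The ratio of miR-503-3p to miR-424-5p depended on the scale. The difference was 0.08 with 1 RPM added (exact permutation p = 0.5) and 0.79 without it (exact permutation p = 0.1).

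Each ratio was tested by an exact two-sided permutation test over the 6 libraries, which cannot give a p under 0.1 for 3 against 3. Of the 6 ratios tested, 4 gave that smallest exact p of 0.1, or 0.15 after Benjamini-Hochberg adjustment over the 6, so this test cannot place a ratio past a threshold of 0.05, however large the difference. The ratio of miR-450b to miR-450a, described without a test, was 1.00, 1.06 and 0.984 in papilla libraries and 0.616, 0.713 and 0.706 in matrix libraries.

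**Figure D3:**
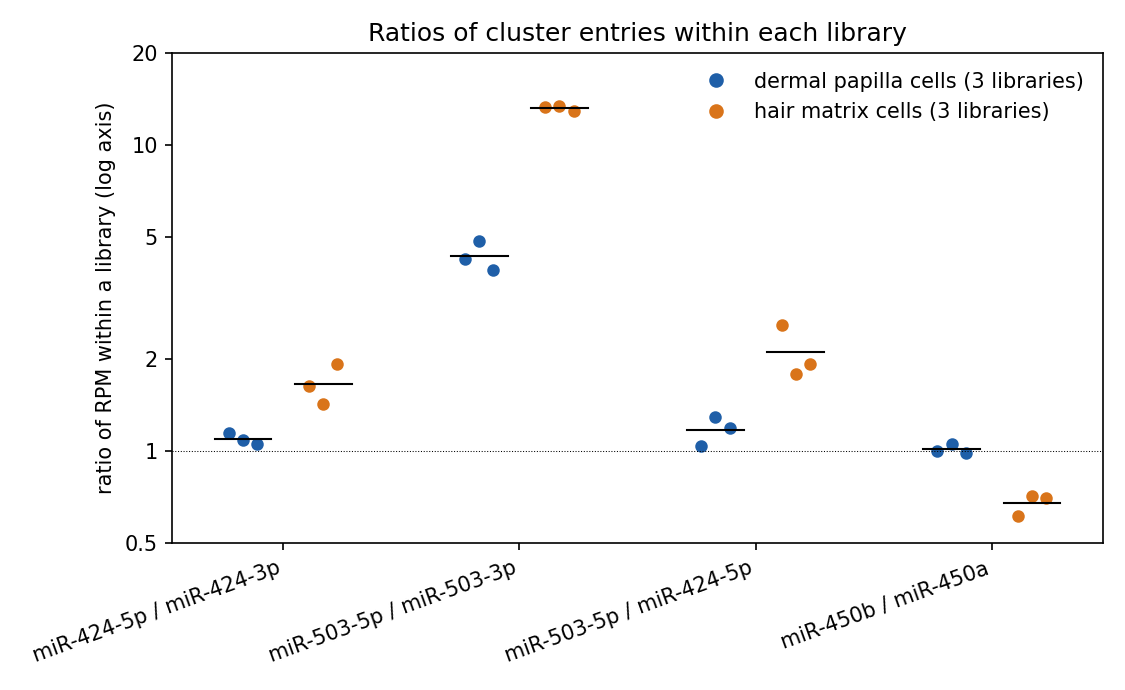
Ratios of RPM between cluster entries within each library, on a log axis. Points are libraries (blue for dermal papilla cells, orange for hair matrix cells) and lines are means. The ratio of miR-503-5p to miR-503-3p is 3.91 to 4.85 in dermal papilla and 13.0 to 13.4 in hair matrix libraries. For none of the ratios shown do the groups overlap. The ratio of miR-450a to miR-424-5p, whose groups overlapped, is not drawn.

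The miR-16 seed family places miR-424-5p and miR-503-5p beside miRNAs of other loci. Of the 9 entries with bases 2 to 7 of miR-424-5p, 8 were tested. Of these, 3 were called towards papilla cells (miR-424-5p, miR-195 and miR-497), 0 towards matrix cells, and 5 were not called. The share called towards papilla cells was 37.5% of the 8 and 33.3% of the 6 outside the cluster, against 25.2% of all 503 tested entries. The median log2 change was 0.78 over the 8 and 0.49 over the 6 outside the cluster, against -0.01 over all tested entries. The untested entry, a predicted one, stayed at or below 0.251 RPM. miR-195 and miR-497 are known to be made from a shared transcript. Their sequences and that of miR-16a are shown beside that of miR-424-5p because all of them hold the same seed, in capitals. Outside the seed they differ to varying degrees, and miR-195 and miR-16a differ least.
miR-424-5p: cAGCAGCAattcatgttttga
miR-497: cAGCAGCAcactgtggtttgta
miR-195: tAGCAGCAcagaaatattggca
miR-16a: tAGCAGCAcgtaaatattggtg

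From the 5′ end miR-424-5p had 14 of 21 positions in common with miR-497, 12 with miR-16a and 11 with miR-195. miR-195 was at 20.9 ± 1.90 RPM in papilla cells and 2.68 ± 0.0931 RPM in matrix cells, and miR-497 at 18.1 ± 1.11 and 2.34 ± 0.370 RPM (SD, n = 3). These papilla levels lay close to those of miR-424-5p, miR-424-3p and miR-503-5p, while the matrix levels were lower than that of miR-424-5p. The log2 changes were 2.57 for miR-195 and 2.52 for miR-497. The other members changed less, with log2 changes of 0.56 for miR-16a, 0.41 for miR-15a and 0.32 for miR-15b, each with a limma adjusted p under 0.05 and none at 2-fold. miR-16b had a log2 change of 0.06 (limma adjusted p = 0.846) and ranged from 41.4 to 83.4 RPM within the matrix libraries. It differs from miR-16a at 1 of 21 positions, and whether the authors' counting divided reads between them was not tested.

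miR-16a alone held 68.7% ± 0.557 of the reads of the 8 tested entries in papilla cells and 68.2% ± 3.83 in matrix cells. miR-424-5p and miR-503-5p together held 4.77%, 5.25% and 4.82% in the papilla libraries and 3.09%, 2.62% and 2.73% in the matrix libraries. miR-195 and miR-497 held 4.45% ± 0.113 and 0.839% ± 0.0237. Summed, the 8 entries were at 876 ± 40.3 RPM in papilla and 597 ± 39.7 RPM in matrix cells, a 1.47-fold difference. miR-424-5p and miR-503-5p thus gave a small share of the reads of these 8 entries in either cell type.

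**Figure D4:**
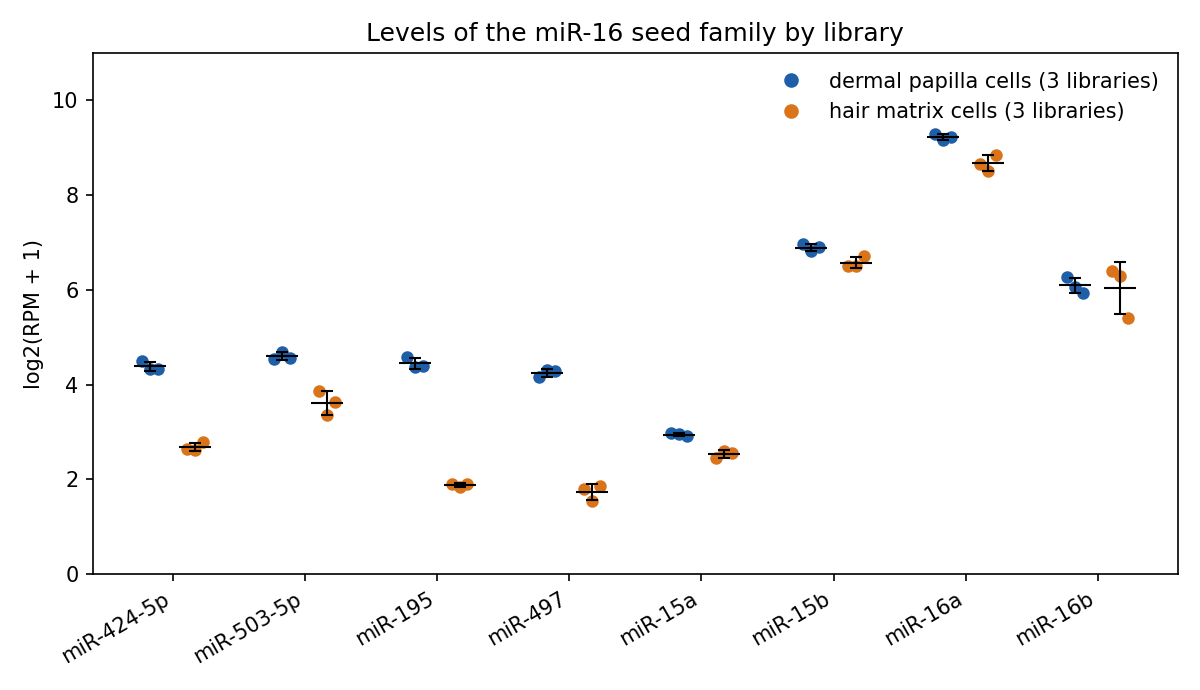
Level of the 8 tested entries with the miR-16 seed core in each library, as log2(RPM + 1), with mean and SD (blue, dermal papilla cells; orange, hair matrix cells). miR-424-5p, miR-195 and miR-497 show wide gaps between the cell types, while miR-15a, miR-15b and miR-16a lie closer together and miR-16b overlaps.

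On the opposite strand, 2 members had an entry that holds their full reverse complement. For miR-542-5p this is the cattle miRNA miR-3601, whose sequence is set beside it so that the complement can be read.
miR-542-5p: tCGGGGATcatcatgtcacgag
miR-3601: tctcgtgacatgatgatccccga

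miR-3601 was at 0.837, 0.961 and 0.701 RPM in papilla libraries and at 0.121, 0.204 and 0.250 RPM in matrix libraries. It exceeded miR-542-5p in every library, on 60 and 14 reads in all, but was below the filter and not tested. The other such entry, a predicted one against miR-503-5p, had 5 reads in papilla and 3 reads in matrix cells over all libraries, against 1683 and 834 reads of miR-503-5p. Whether the authors counted by strand is a point not given in the sources used here.

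Outside the cluster, the 5 miRNAs with cattle names whose profile over the 6 libraries was nearest to that of miR-424-5p were miR-155, miR-2284w, miR-2284b, miR-541 and miR-2285m. The measure was the Euclidean distance between log2(RPM + 1) values centred on each miRNA's mean, and the distances were 0.113, 0.162, 0.175, 0.180 and 0.195. miR-155 averaged 395 RPM in papilla and 119 RPM in matrix cells. The other 4 averaged 2.23 to 4.50 RPM in papilla cells and at most 0.560 RPM in matrix cells, so their likeness holds on the scale with 1 RPM added and not for the ratio of levels. Among the members themselves the distances to miR-424-5p were 0.239 for miR-450a, 0.304 for miR-503-3p, 0.616 for miR-424-3p, 0.651 for miR-450b and 0.973 for miR-503-5p. The likeness of miR-503-3p also holds only with 1 RPM added. By mean RPM it was 6.29-fold higher in papilla cells, and miR-424-5p was 3.67-fold higher.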

How the data were processed

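Small RNA of 6 samples was compared, 3 of dermal papilla (papilla) and 3 of hair matrix (matrix) cells. Per the labels' protocols, total RNA went into a TruSeq small RNA kit. Trimmomatic, HISAT2 2.2.1.0 and DESeq 1.20.0 are named in the submitters' processing notes, without roles. The genome build, the source of the miRNA names and the treatment of reads with several matches were not given in the sources used here. Per the file itself, the authors' deposited values, called TPM in the file name, are RPM, because 100% of them are whole multiples of 1 step within 0.001 read, and whole reads were recovered this way. The step gives 23904796 to 24693655 reads per library, and 71.7% to 73.5% of these lie on the 2853 entries. Intervals and floors cover counting error only.

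The 503 entries that reached 1 RPM in 3 or more libraries were fitted on log2(RPM + 1) with limma 3.58.1 (R 4.3.3). The model had 1 term, cell type, and used a mean-variance trend, and p-values were adjusted by Benjamini-Hochberg over the 503. Log2 changes are papilla minus matrix, and a fold compares mean RPM. The step was tested on simulated data, where it called 0% of 1.5-fold, 26% of 2-fold and 96% of 4-fold changes in the right direction. A change near 2-fold can thus go uncalled. Ratios were tested by exact permutation with a pseudocount of 1. The ratio of miR-424-3p to miR-424-5p is the inverse of the arm ratio and was counted once. Chi-square tests on whole reads gave at least 26.6 per degree of freedom between replicates, so none agreed within counting noise.

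Alternatives were other pseudocounts and filters, TMM scaling, median centring, quantile normalization, variances with no trend, a replicate block, edgeR 4.0.16 and DESeq2 1.42.0 on recovered reads, and leaving out each library. Leaving out each library with the tested entries held fixed was added after seeing the data. The members and lists were chosen with earlier results of these data known. Every member is named, with all tested entries of the seed family, the 5 miRNAs nearest to miR-424-5p and, of the X chromosome list, the 3 most abundant and those called. A planned match of unnamed entries to hairpin sequences was not run, and genome positions were not analysed here.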

Additional observations from a re-analysis of the deposited data

How the results depend on the processing

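No member's log2 change and no ratio changed direction in the alternatives, of which 138 were for single members and 48 for ratios. For single members, only TMM scaling, median centring, quantile normalization, edgeR and DESeq2 could have reversed a change. Leaving out a library or changing the pseudocount could not, because the groups did not overlap for any member. The other alternatives leave a member's log2 change as it is. For single members, 127 of the 138 stayed on the same side of the call threshold. The leave-out fits enter both with and without the tested entries held fixed, which leaves a member's log2 change the same. Counts of calls were not given a direction. Their balance did change, with 109 towards papilla and 137 towards matrix cells after median centring. With a pseudocount of 10, 3 members were called instead of 5, since miR-424-5p (0.96) and miR-503-3p (0.50) fell under 2-fold, and all calls numbered 77 and 40 (higher in papilla and in matrix cells) instead of 127 and 100. The filter of 10 RPM left 80 and 47 calls and did not test miR-503-3p. miR-503-5p was called with a pseudocount of 0.5 (1.02), edgeR (1.01) and DESeq2 (1.10). Leaving out 1 library gave 0.86 to 1.11, with a call without papilla replicate 1 (1.02) or 3 (1.01) or matrix replicate 1 (1.11), also with the tested entries held fixed; 5 or 6 members were called. Its adjusted p ranged from 3.11e-13 to 0.255 over the alternatives. All calls without 1 library ranged from 65 to 128 and from 60 to 104, because the filter then tested fewer entries; held fixed, they were 125 to 128 and 100 to 104.

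Median centring moved the median log2 change of all entries from -0.01 to -0.29 and the calls to 109 and 137, and quantile normalization moved them to -0.23 and to 112 and 128. edgeR and DESeq2 called 143 and 141, and 151 and 135. The labels do not say whether replicate numbers pair the samples. Deviations of same-numbered libraries correlated at 0.14, 0.08 and -0.27, and not every library correlated best with its own number. With 3 libraries of each type these correlations cannot settle whether the samples are paired. With the replicate block there were 127 and 101 calls, and 5 members were called. The depth limits miR-542-5p, at 0 to 5 reads per library.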

Other observations

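Other miRNAs of X chromosome clusters, listed by their known location in mammals, moved in both directions. Of 32 entries 23 were tested, of which 5 were called higher in papilla cells, 4 higher in matrix cells and 14 not called, and their median log2 change was 0.49 against -0.01 over all 503 tested entries. The share called higher in papilla cells was 21.7%, near the 25.2% of all tested entries. miR-224 and miR-452, from 1 host gene, were at 516 and 187 RPM in papilla cells and at 185 and 81.3 RPM in matrix cells on average, and miR-532 was at 1042 and 413 RPM. miR-105a and miR-767, a pair known from testis and tumours, averaged 9.36 and 10.9 RPM in papilla cells. miR-105a had 675 reads there and 0 reads in the matrix libraries, at least 228-fold higher against a floor of 3 reads over the group, and miR-767 had 786 reads and 1 read. Both reached the minimum of 1 RPM in the papilla libraries alone. The entries called higher in matrix cells were miR-221 (1608 and 5292 RPM in papilla and matrix cells), miR-222 (57.5 and 501 RPM), miR-652 (14.0 and 49.8 RPM) and miR-505 (2.97 and 8.12 RPM). The abundant miR-92a (log2 change -0.03) and miR-98 (0.49) were not called. miR-92a and miR-19b also have copies outside the X chromosome.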
